A study of Homo sapiens with 6 samples.

Results

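The 40 genes described here act in mitosis and on the mitotic spindle, and they were taken as a list of gene symbols. A gene counted as measured where a probe set of the array was annotated with its symbol alone, and the brightest such probe set by the mean over the arrays stood for the gene. This left 39 of the 40 genes among 18377 genes on the array. CENPA, the histone variant that marks centromeres, was not analysed here, since its 1 probe set carried several symbols. BIRC5 was the only member with more than 1 probe set of its own (2).

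RNA was taken from transfected MDA-MB231 cells, a long-established line from a human breast cancer. The 3 GHSROS samples carried the pTargeT mammalian expression vector with GHSROS, a long noncoding RNA read from the strand opposite the ghrelin receptor gene, and the 3 empty vector samples carried pTargeT without an insert. Cells of both groups were grown in DMEM/F12 medium with 10% Cosmic calf serum, penicillin and streptomycin. The labels give neither the time between transfection and harvest nor whether the cultures were single clones or mixed pools, and the series describes the replicates as biological. Each sample was read on 1 Affymetrix Human Gene 1.0 array, and the values are log2 expression on which 1 unit is a 2-fold difference. The array medians lay between 6.559 and 6.648. The markers chosen for the character of the line (VIM, CD44, AXL, MSN and EGFR) averaged 11.48 to 13.16 over the 6 arrays. Of the luminal markers, ESR1, PGR and CDH1 averaged 5.13, 4.57 and 5.17, EPCAM and GATA3 7.37 and 7.40, and KRT19 11.83. Of the leukocyte markers, PTPRC and CD3E averaged 3.61 and 5.12, and CD68, a lysosomal protein gene, 12.36. Probe sets differ in brightness at equal RNA, so these levels do not rank the genes. GHSROS was not analysed here, since no probe set carried its symbol in the annotation used, and the labels could not be checked by it. The comparison asks whether cells made to express GHSROS hold different levels of mitosis transcripts.

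Mitosis is driven by CDK1 with cyclins A and B, which switch on late in the cell cycle and are destroyed when the anaphase promoting complex lets the chromosomes part. Kinetochores, motor proteins and the spindle checkpoint attach chromosomes to microtubules and delay their separation until all are attached. Transcripts of these genes accumulate together in G2 phase and mitosis and are low in resting cells, so their level in a culture follows how many cells divide. In RNA from whole cultures, fewer cells in G2 or mitosis and less of the RNA in each such cell cannot be told apart.

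Promoters of many mitosis genes are known to hold a short element, the cell cycle genes homology region (CHR), next to CCAAT boxes, and the complexes DREAM and MuvB with B-MYB bind the CHR. RefSeq promoter windows of build GRCh38.p14, from 250 bases before to 50 bases after a gene's start, were found for 32 of the 39 measured members. A CHR, searched as TTTGAA or TTTAAA on both strands, stood in 28 of these 32 genes (87.5%), against 27.9% of all 27305 genes with such windows and 24.3% of the 14210 measured ones. Within 50 bases of the start it stood in 24 members (75.0%), against 9.41% of all genes. A CCAAT box, searched as CCAAT on both strands, stood in 26 members (81.2%) and in 39.7% of all genes, and 22 members (68.8%) held both motifs, against 11.2% of all genes. E2F motifs, searched on both strands in the form TTGGCGC or in the variant forms TTCGCGC or else TTCCCGC, stood in 7 members (21.9%), against 13.1% of all genes and 18.1% of the measured ones. A gene with several windows counted once if any of them held the motif, and neighbouring CCAAT matches on opposite strands can overlap. The letters are a description of the windows and show no binding.

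**Figure D1:**
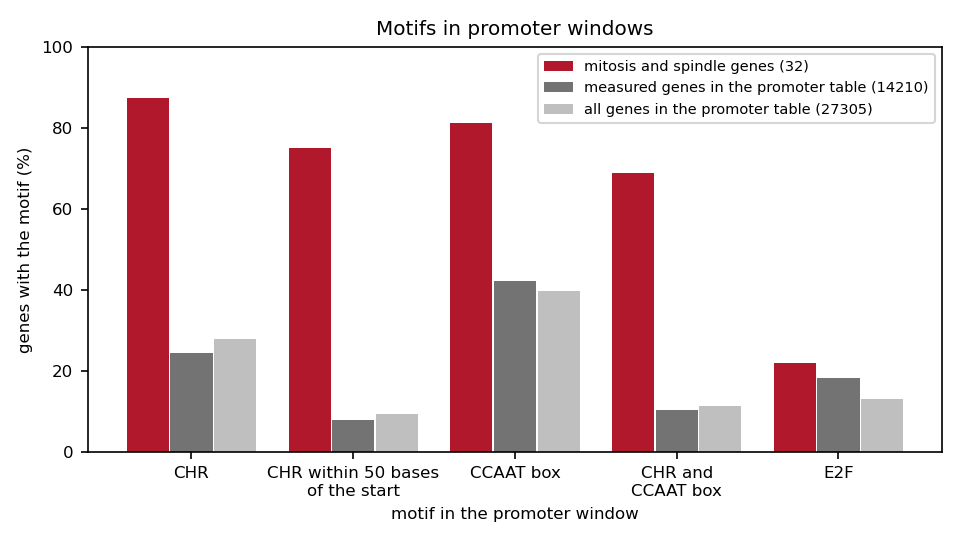
Share of genes, in percent, whose promoter window holds each motif, for the 32 mitosis and spindle genes with a window, the measured genes and all genes with a window. The CHR bar stands at 87.5% for the mitosis and spindle genes and at 27.9% for all genes, while the E2F bars stand at 21.9% and 13.1%.

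The 250 bases before the start are shown for the 3 members with the widest range over the arrays and for the member with the narrowest, each 5′ to 3′ on the gene's own strand, to set the most and the least variable promoters side by side. CHR and CCAAT matches are in capitals. They are CDC20 (chr1:43358731-43358980, plus strand), CENPE (chr4:103198344-103198593, minus strand), KIF23 (chr15:69414099-69414348, plus strand) and ECT2 (chr3:172750476-172750725, plus strand, the window with the lower coordinates of 2).
CDC20: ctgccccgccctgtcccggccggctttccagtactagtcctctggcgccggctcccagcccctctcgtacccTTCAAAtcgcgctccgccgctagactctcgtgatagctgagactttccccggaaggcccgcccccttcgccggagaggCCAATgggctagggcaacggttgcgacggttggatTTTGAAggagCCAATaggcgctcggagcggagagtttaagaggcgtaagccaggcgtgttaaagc
CENPE: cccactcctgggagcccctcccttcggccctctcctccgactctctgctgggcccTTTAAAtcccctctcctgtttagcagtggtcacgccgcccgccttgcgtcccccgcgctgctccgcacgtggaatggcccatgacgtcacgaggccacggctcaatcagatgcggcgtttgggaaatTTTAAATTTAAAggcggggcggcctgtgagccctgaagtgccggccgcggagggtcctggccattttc
KIF23: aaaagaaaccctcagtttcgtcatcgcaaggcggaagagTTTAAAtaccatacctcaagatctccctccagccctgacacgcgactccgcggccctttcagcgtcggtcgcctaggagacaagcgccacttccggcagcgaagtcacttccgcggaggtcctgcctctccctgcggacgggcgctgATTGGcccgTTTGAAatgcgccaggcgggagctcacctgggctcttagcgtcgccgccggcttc
ECT2: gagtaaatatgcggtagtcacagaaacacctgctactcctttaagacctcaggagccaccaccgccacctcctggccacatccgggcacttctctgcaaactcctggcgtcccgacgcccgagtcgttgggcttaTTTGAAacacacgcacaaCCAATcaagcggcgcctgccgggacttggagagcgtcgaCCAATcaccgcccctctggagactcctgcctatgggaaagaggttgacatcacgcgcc
All 4 windows held a CHR, and the narrow-range ECT2 held it with CCAAT boxes in the window shown, as the wide-range CDC20 did. The other ECT2 window held CHR matches without a CCAAT box. Among all members with a window, the median range was 1.22 in the 22 that held both motifs and 1.23 in the 10 that did not. CENPE had CHR matches without a CCAAT box.

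Between the groups, no mitosis or spindle gene passed the test. Over the 39 genes the median log2 difference, GHSROS minus empty vector, was 0.06, and over all 18377 genes it was 0.00. Of the members 30 were above 0 and 9 below, or 37 and 2 after quantile normalization, but this lean turned with single arrays. Without empty vector array 1, 0 members were above 0 and the median was -0.27, and without GHSROS array 3, 39 were above 0 and the median was 0.37. Without GHSROS array 1 or 2, the count above 0 was 2 or 5. In limma with Benjamini-Hochberg adjustment over all genes, 0 of the 39 members had an adjusted p under 0.05, as did 0 of all genes (0.0%), and each member's adjusted p was 1. Without adjustment, p was under 0.05 in 0 members and in 1.77% of all genes, and the smallest p among members was 0.384, for NUSAP1. In 0 members did the 3 GHSROS arrays lie apart from the 3 empty vector arrays. This had to follow where the lowest 2 arrays came from different groups, as they did in all 39 members. Separate groups were found in 5.51% of all genes, 3.06% with GHSROS higher and 2.44% with GHSROS lower.

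The members' values spread widely among arrays of the same group. In all 39 members, GHSROS array 3 and empty vector array 1 were the lowest of the 6 arrays, where the same 2 arrays were lowest in 20.3% of all genes. The mean over the 39 members was 10.94, 10.88 and 9.95 on GHSROS arrays 1, 2 and 3, against 9.91, 10.74 and 10.96 on empty vector arrays 1, 2 and 3. The group means of this list were 10.59 ± 0.56 in GHSROS samples and 10.54 ± 0.56 in empty vector samples (SD, n = 3 each). The median member ranged over 1.21 log2 units from its highest to its lowest array, against 0.37 for the median of all genes. Of the 39 members 30 ranged over more than 1 unit, against 5.57% of all genes. The median level was 10.74 in members and 7.54 in all genes, so these figures compare genes of unlike level. In 38 members this range was more than 5 times the difference between the groups, which also held for 56.3% of all genes.

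**Figure D2:**
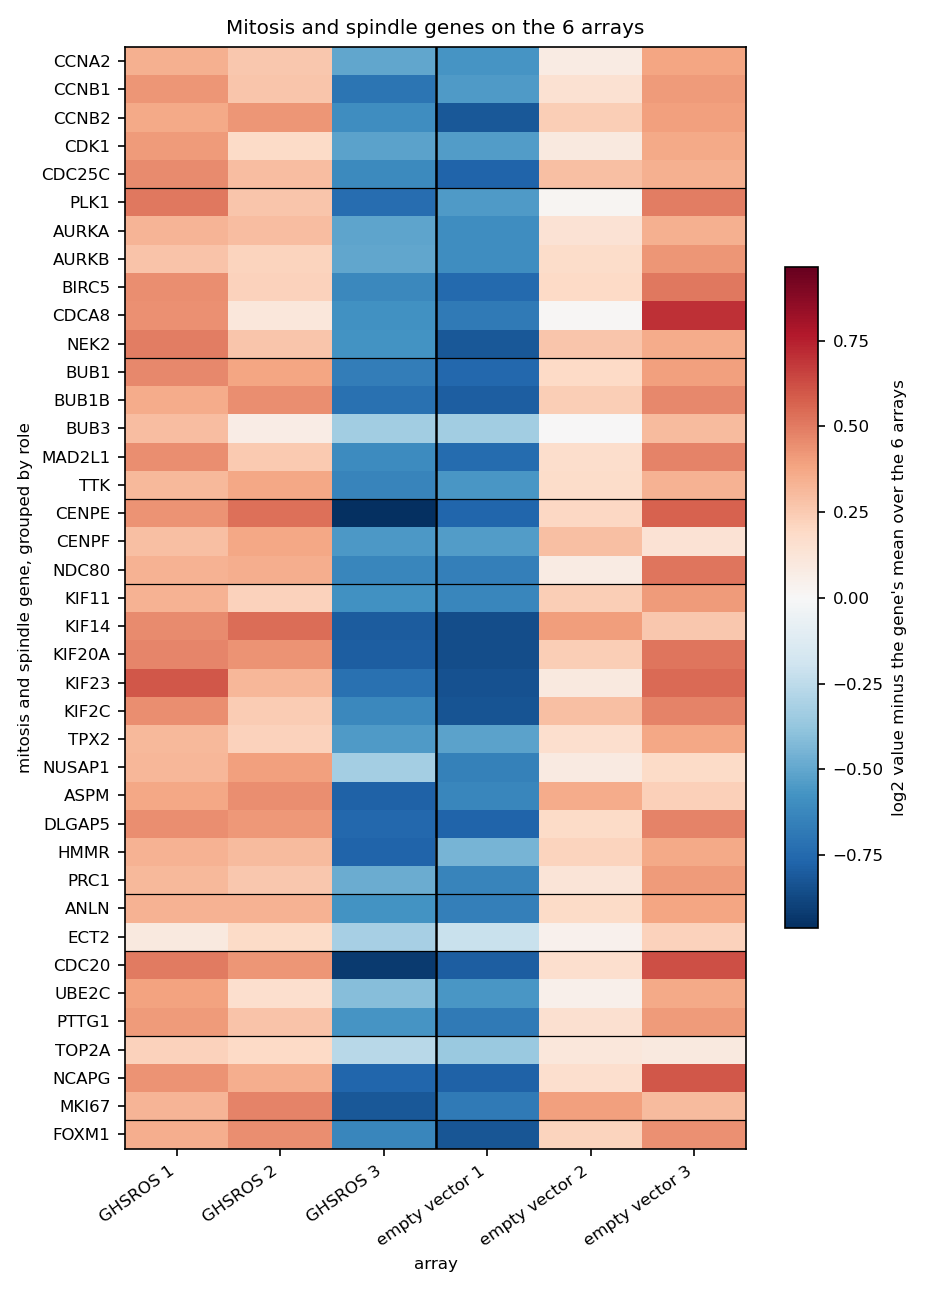
Log2 value of each measured mitosis and spindle gene (rows, grouped by role) minus the gene's own mean over the 6 arrays, for the 3 GHSROS arrays on the left and the 3 empty vector arrays on the right. GHSROS array 3 and empty vector array 1 are blue, below the mean, in all 39 rows.

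The gap between these arrays and the rest was wide in relation to the spread of the others. The members and these arrays were chosen with earlier results of these data known. Since these arrays were the lowest in all 39 members, some gap had to follow, and its size is a description. From the higher of GHSROS array 3 and empty vector array 1 to the lowest of the other 4 arrays, the gap was 0.25 units in ECT2, the smallest, and 1.06 units in KIF14, the largest, with a median of 0.76. In 38 of the 39 members this gap exceeded the whole range of those 4 arrays, whose median was 0.27, and CDCA8 was the exception, with a gap of 0.59 and a range of 0.70. The gap exceeded that range in 7.07% of all genes. Empty vector array 2 was the lowest of the 4 in 32 members, against 34.27% of all genes. Empty vector array 3 was the highest of all arrays in 22 members, against 25.57% of all genes.

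Cyclins A and B bind CDK1 to start mitosis, and CDC25C removes the phosphates that hold CDK1 inactive. CCNB1, cyclin B1, stood at 11.17, 11.01 and 10.04 on GHSROS arrays 1 to 3, against 10.19, 10.88 and 11.15 on empty vector arrays 1 to 3. Both groups thus held 1 low and 2 high arrays, and the difference was -0.01 (SE 0.35). CDK1 stood at 10.44, 10.22 and 9.52 in GHSROS samples and at 9.50, 10.12 and 10.39 in empty vector samples. Its difference of 0.05 had a 95% interval from -0.66 to 0.77, and the groups overlapped, with GHSROS array 3 and empty vector array 1 below the other 4 arrays. The differences of CCNA2, CCNB2 and CDC25C were 0.07, 0.13 and 0.09, each with an SE of at least 0.30.

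PLK1, AURKA and NEK2 are kinases of the centrosome and spindle, and AURKB forms the chromosomal passenger complex with BIRC5 (survivin) and CDCA8 (borealin) to correct faulty attachments. PLK1, among the brightest members, stood at 12.37, 12.12 and 11.12 in GHSROS samples, against 11.31, 11.88 and 12.35 in empty vector samples. The passenger kinase AURKB stood at 11.33, 11.27 and 10.55 in GHSROS samples, against 10.45, 11.23 and 11.48 in empty vector samples. Its group means were both 11.05 and its difference was -0.00 (SE 0.31). CDCA8 had its highest value on empty vector array 3, at 10.70, where the other high arrays stood at 10.00 to 10.43, while BIRC5 and AURKB were also highest there. BIRC5 differed by 0.03 (SE 0.39) on its brighter probe set and by 0.02 on the dimmer one, and both probe sets were lowest on GHSROS array 3 and empty vector array 1. AURKA and NEK2 differed by 0.08 and 0.13.

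The spindle checkpoint kinases BUB1, BUB1B and TTK and the inhibitor MAD2L1 hold back CDC20 until chromosomes are attached, and BUB3 carries BUB1 and BUB1B to the kinetochore. BUB1 stood at 11.65, 11.57 and 10.53 in GHSROS samples, against 10.44, 11.38 and 11.59 in empty vector samples. BUB3, which is also bright, had only a narrow range, at 12.10, 11.87 and 11.46 in GHSROS samples and 11.47, 11.81 and 12.11 in empty vector samples. Both genes had the same 2 low arrays, with a range of 0.64 in BUB3 and 1.21 in BUB1. The 5 checkpoint genes had differences from 0.02 in BUB3 to 0.12 in BUB1. At the kinetochore, the motor CENPE stood at 9.67, 9.77 and 8.28 in GHSROS samples, against 8.48, 9.44 and 9.81 in empty vector samples. Its difference was -0.00 with a 95% interval from -1.14 to 1.14, while its range of 1.53 was a 2.88-fold span between arrays. CENPF, of the outer kinetochore, and NDC80, which grips microtubule ends, differed by 0.07 and 0.04.

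Among motors and microtubule proteins, KIF23 bundles the central spindle with PRC1, KIF20A and KIF14, KIF11 pushes the poles apart, and TPX2, HMMR, ASPM, DLGAP5 and NUSAP1 organise spindle microtubules. NUSAP1 had the largest difference of all members, at 11.58, 11.66 and 10.93 in GHSROS samples, against 10.61, 11.34 and 11.44 in empty vector samples. That difference was 0.26 (SE 0.28), with a 95% interval from -0.40 to 0.91, and GHSROS array 3 lay below empty vector arrays 2 and 3. HMMR, a hyaluronan receptor that also works at the spindle, had the most negative difference, -0.09 (SE 0.34). It stood at 8.17, 8.15 and 7.07 in GHSROS samples and at 7.40, 8.05 and 8.20 in empty vector samples. KIF23 stood at 11.64, 11.36 and 10.32 in GHSROS samples, against 10.20, 11.13 and 11.59 in empty vector samples. Its range of 1.44 was the widest in this group, and its difference was 0.13 (SE 0.44). KIF14, KIF20A, KIF2C, KIF11, TPX2, ASPM, DLGAP5 and PRC1 differed by -0.01 to 0.13, and their ranges ran from 0.91 in TPX2 to 1.39 in KIF14.

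CDC20, which activates the anaphase promoting complex, had the widest range of all members. It stood at 12.28, 12.20 and 10.86 in GHSROS samples, against 10.98, 11.94 and 12.40 in empty vector samples, a 2.92-fold span over arrays beside a difference of 0.00 (SE 0.48). UBE2C, the ubiquitin-conjugating enzyme of the complex, and PTTG1, the securin it destroys, differed by 0.10 and 0.08. ECT2, which activates the GTPase RHOA in the cleavage furrow, had the narrowest range, 0.54, with 11.35, 11.44 and 10.94 in GHSROS samples and 11.04, 11.30 and 11.48 in empty vector samples. ANLN, a furrow scaffold, ranged over 1.03 and differed by 0.06. TOP2A, which untangles sister chromatids, was also narrow, at 11.86, 11.84 and 11.38 in GHSROS samples, against 11.29, 11.75 and 11.74 in empty vector samples. Its difference was 0.10 (SE 0.18).

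MKI67, the proliferation antigen Ki-67 that coats mitotic chromosomes, stood at 11.33, 11.48 and 10.18 in GHSROS samples, against 10.32, 11.40 and 11.31 in empty vector samples. Its difference was -0.01 (SE 0.41). The condensin subunit NCAPG ranged over 1.38 and differed by 0.02. FOXM1, a transcription factor of G2/M genes, stood at 11.49, 11.59 and 10.51 in GHSROS samples, against 10.32, 11.36 and 11.58 in empty vector samples. Its transcript thus had the same 2 low arrays as the other members, and its difference was 0.11 (SE 0.40).

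**Figure D3:**
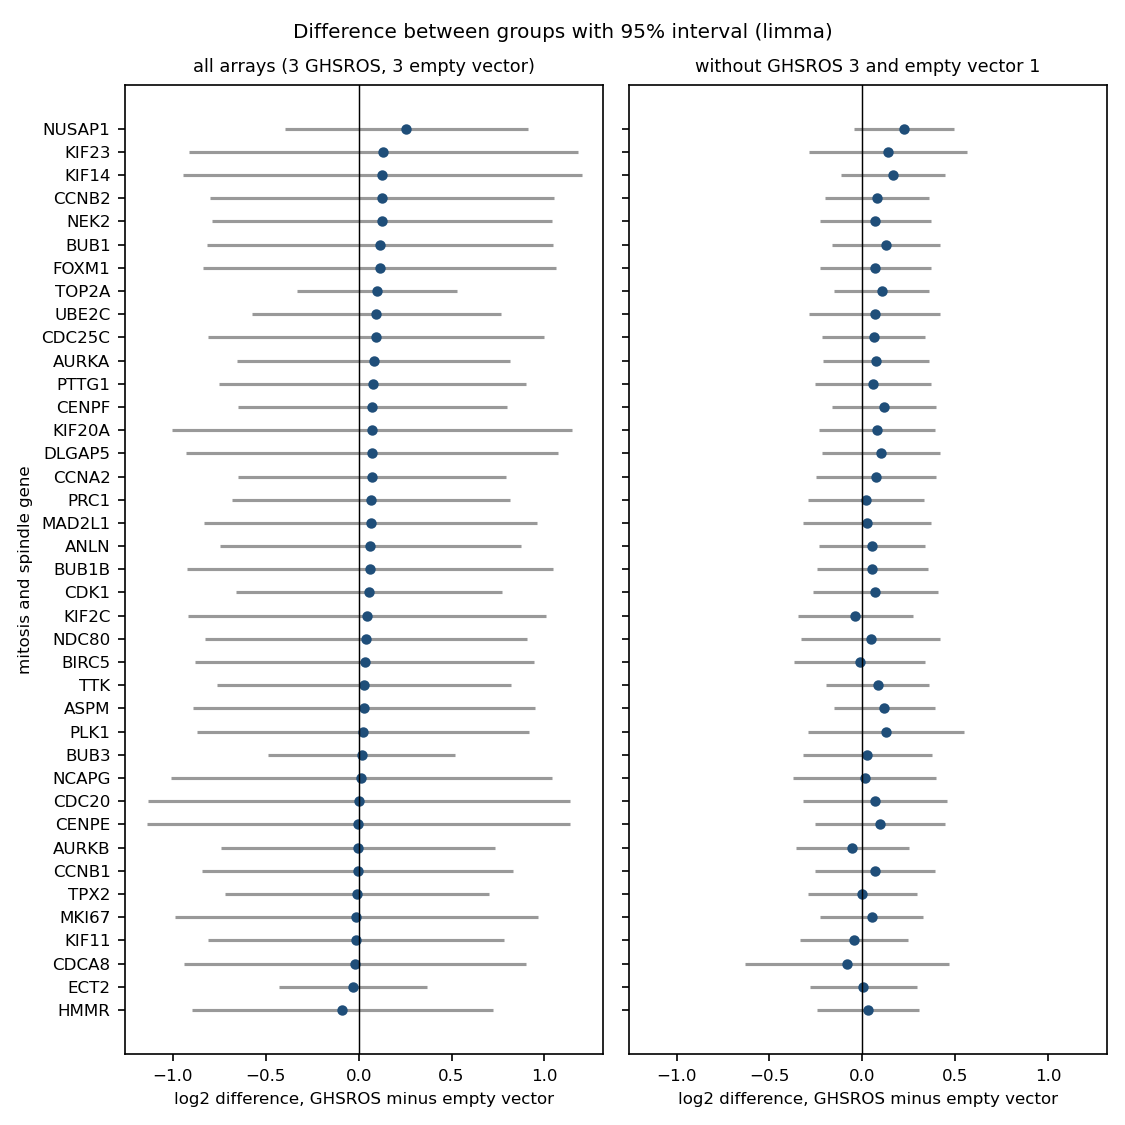
Log2 difference, GHSROS minus empty vector, of each mitosis and spindle gene (points) with its 95% interval from limma (lines), for all 6 arrays on the left and without GHSROS array 3 and empty vector array 1 on the right. All 39 intervals on the left include 0, and the largest difference is 0.26 for NUSAP1.

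The wide spread within groups set what the comparison could show. The members' standard errors ran from 0.17 in ECT2 to 0.48 in CENPE. Their median was 0.38, against 0.12 over all genes, whose median level was lower. All 39 intervals included 0, and 34 reached beyond a 1.5-fold difference in both directions. In those 34 genes the intervals excluded a difference of that size in neither direction. The count also depends on where an interval is centred, and NUSAP1, with an interval from -0.40 to 0.91, fell outside it. With GHSROS array 3 and empty vector array 1 both left out, the median width of the 95% intervals was 0.61, against 1.78 with all arrays. These arrays were the lowest in all 39 members and were chosen with earlier results known, so narrower intervals had to follow. The p-values and separate groups under this omission rest on arrays picked in that way and are a description. With these arrays left out, 0 of the 39 members passed the adjusted test and 0 had an unadjusted p under 0.05. The median difference was 0.07, and 33 members were above 0. NUSAP1 then differed by 0.22 (SE 0.11). The smallest unadjusted p of a member was 0.0901, in NUSAP1, and each adjusted p was 1.00. NUSAP1, KIF14, ASPM and TOP2A were the 4 members in which both remaining GHSROS arrays lay above both remaining empty vector arrays, where 25.3% of all genes had groups apart with these arrays left out.

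Single arrays of the groups with the same number differed in opposite directions. Between GHSROS array 1 and empty vector array 1, all 39 members were higher in the GHSROS sample, by a median of 1.01. Between the arrays numbered 2, 37 of 39 were higher in the GHSROS sample, by a median of 0.13. Between the arrays numbered 3, all 39 were lower in the GHSROS sample, with differences from -1.55 to -0.36. The medians over all genes were 0.03, 0.01 and -0.01 for the arrays numbered 1, 2 and 3, and each single pair compares 1 culture with 1 culture.

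A wider list of 122 other mitosis genes, sorted by complex, had 119 measured members, of which 66 were above 0 and 53 below between the groups. None passed the test, with 0 at an adjusted p under 0.05 and 0 at an unadjusted p under 0.05 in limma, and the list's median difference was 0.01. GHSROS array 3 and empty vector array 1 were the lowest in 95 of these 119 genes. By complex, these were 29 of 31 centromere and kinetochore genes, 20 of 24 motor and spindle genes, 13 of 15 condensin and cohesin genes, 14 of 19 genes of mitotic entry and its regulators, 11 of 17 genes of the anaphase promoting complex, 5 of 7 checkpoint and passenger genes and 3 of 6 cytokinesis genes. The median range was 0.97 in centromere and kinetochore genes and 0.55 in genes of the anaphase promoting complex.

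The widest range among kinetochore genes was that of CENPW, a centromere protein, at 8.25, 8.22 and 6.56 in GHSROS samples, against 6.72, 7.91 and 8.36 in empty vector samples. OIP5, which helps load CENPA, ranged over 1.53 and had the most positive difference of that group, 0.26 (SE 0.42), while CENPH had the most negative, -0.12. The cohesin protectors SGO2 and SGO1 differed by 0.06 and 0.13, TRIP13, an ATPase that remodels MAD2, by 0.02, and MAD1L1 by -0.09. Among spindle genes KIF20B and SPAG5 ranged over 1.49 and 1.44, and the extremes of the difference were CKAP2L at 0.10 and HAUS3 at -0.17. In cytokinesis, CEP55 ranged over 1.17 and differed by -0.06, and CIT, the citron kinase, differed by 0.15. The condensin genes NCAPG2 and NCAPH ranged over 1.23 and 1.14 and differed by -0.04 and 0.09, and SMC2 differed by -0.07.

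Around the anaphase promoting complex, 13 of 17 genes were below 0, none past the test, with a median difference of -0.08. Of all 18377 genes, 9025 were below 0. The list mean was 9.90, 9.83 and 9.60 in GHSROS samples, against 9.70, 9.81 and 9.99 in empty vector samples. Whether this lean turns with single arrays was not tested. UBE2S, which extends ubiquitin chains, ranged over 1.28, and CDC26, a small subunit, over 1.15 with the most negative difference, -0.17 (SE 0.27). FBXO5 (EMI1), an inhibitor of the complex, had the most positive, 0.16 (SE 0.30). Among regulators of entry, the phosphatase CDC25A ranged over 1.72 and the kinase PBK over 1.41. CKS2, a small CDK-binding protein, had the most negative difference, -0.20 (SE 0.19), and CDC25A the most positive, 0.12.

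**Figure D4:**
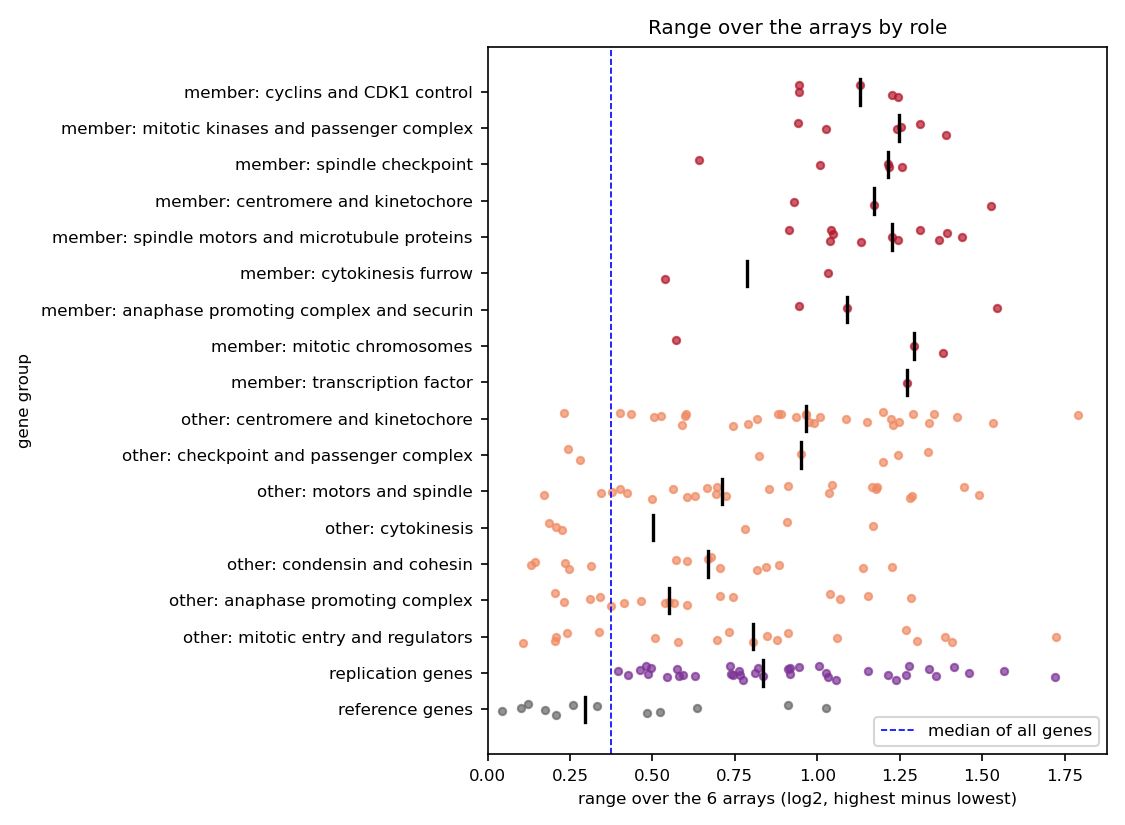
Range over the 6 arrays, highest minus lowest log2 value, of each gene (points) by role, with the median of each group as a black bar and the median of all genes, 0.37, as a dashed line. ECT2, TOP2A and BUB3 are the narrowest members, at 0.54, 0.57 and 0.64, and reference genes have a median of 0.30.

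DNA replication genes, which act in S phase before mitosis, had the same low arrays in 37 of 39 measured genes. Their list mean was 9.99, 9.89 and 9.36 in GHSROS samples, against 9.26, 9.80 and 10.14 in empty vector samples. The median range was 0.84, and 21 genes were above 0 and 18 below between the groups, with 0 past the test. RRM2, the ribonucleotide reductase subunit, ranged over 1.72, GINS4, of the replicative helicase, over 1.57, and the extremes of the difference were the S-phase transcription factor E2F2 at 0.29 (SE 0.21) and the DNA ligase LIG1 at -0.21 (SE 0.18).

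Other gene groups moved with the low mitosis arrays, and their part in the result was not tested. Genes of the amino acid stress response had GHSROS array 3 and empty vector array 1 as the highest arrays in 21 of 29 measured genes, against 18.9% of all genes. Their list mean was 9.70, 9.76 and 10.49 in GHSROS samples, against 10.45, 9.93 and 9.65 in empty vector samples. NUPR1, a stress-induced chromatin protein gene, stood at 6.79, 6.62 and 10.93 in GHSROS samples, against 10.82, 6.74 and 6.61 in empty vector samples. CHAC1, which degrades glutathione, ranged over 2.66, with the list's most negative difference, -0.28 (SE 0.82), and VLDLR had the most positive, 0.10 (SE 0.46). The 12 measured reference genes, used as loading controls in many assays, had a list mean of 11.46, 11.45 and 11.17 in GHSROS samples, against 11.17, 11.42 and 11.48 in empty vector samples. GHSROS array 3 and empty vector array 1 were the lowest arrays in 9 of these 12 genes, against 20.3% of all genes. The iron uptake receptor TFRC, with a range of 1.03, and POLR2A, the large subunit of RNA polymerase II, with 0.91, spread most among them, and the extremes of the difference were TFRC at 0.10 and ACTB at -0.07.

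Markers of other cell types were also set beside the low mitosis arrays, and their part in the result was not tested. The 3 endothelial markers had a list mean of 6.89, 6.86 and 7.64 in GHSROS samples, against 7.35, 6.94 and 6.48 in empty vector samples, so the list was highest on GHSROS array 3 and empty vector array 1. Among them KDR, a VEGF receptor, stood at 7.77, 7.68 and 9.10 in GHSROS samples, against 8.81, 7.30 and 7.20 in empty vector samples, while PECAM1 and CDH5 did not have both low mitosis arrays as their highest. Of the 4 fibroblast markers, 1 had these arrays highest, the PDGF receptor PDGFRB, at 6.52, 7.09 and 7.52 in GHSROS samples, against 7.44, 7.16 and 6.52 in empty vector samples. DCN and LUM, matrix proteoglycans that mark fibroblasts, averaged 3.64 and 3.48. The remaining fibroblast marker, the collagen gene COL1A1, was the brightest of the 4 and averaged 7.73. CD68 was highest on these arrays too, as 1 of 3 measured leukocyte markers, and 0 of the 6 luminal markers were. The leukocyte list mean ran from 6.92 to 7.09 in GHSROS samples and from 6.99 to 7.15 in empty vector samples. The luminal list mean ran from 6.85 to 6.96 in GHSROS samples and from 6.84 to 6.99 in empty vector samples. Between the groups, 0 of these 16 markers passed the test, and KRT19 had an unadjusted p of 0.0468, with a difference of -0.28 (SE 0.12).

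**Figure D5:**
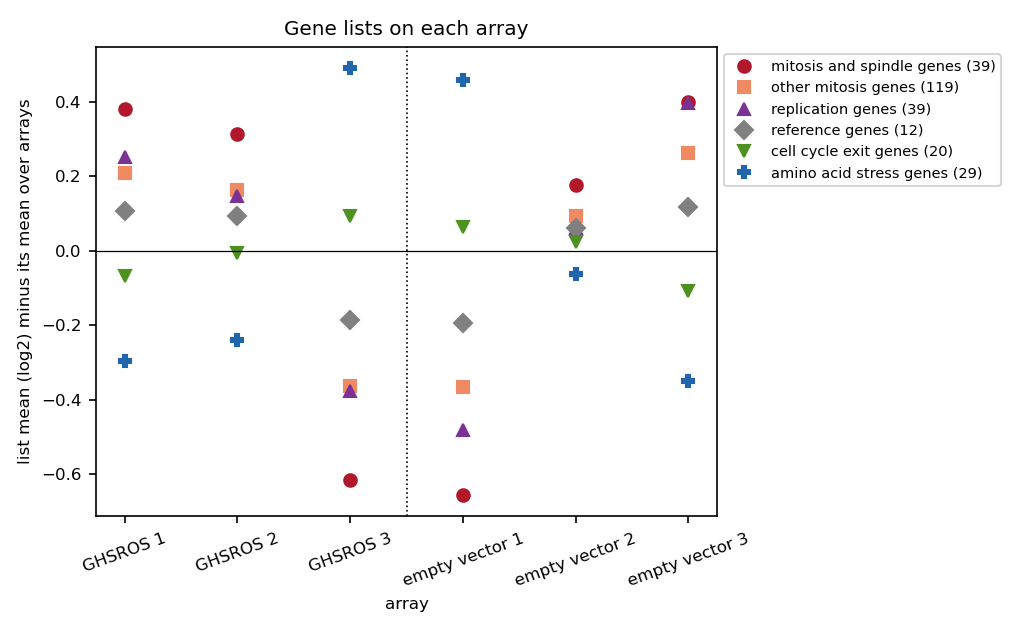
Mean log2 value of each gene list on each array minus the list's mean over the 6 arrays, GHSROS arrays on the left and empty vector arrays on the right. The mitosis and spindle list is lowest on GHSROS array 3 and empty vector array 1, on which the amino acid stress list is highest.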

How the data were processed

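Total RNA of 6 samples was read on 1-colour Affymetrix Human Gene arrays, 3 with GHSROS and 3 with the empty vector, with groups and numbers taken from the titles. The authors deposited log2 values for each probe set, and RMA is the tool named per the submitters' processing notes. Which steps, filters and version it ran with is not given here in any source used. Where RMA sets all arrays to 1 distribution, a shift shared by most genes is lost. No column was left out (0).

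Of 28869 probe sets, 19310 carried 1 gene symbol in the platform annotation, 1752 several, and 7807 were not listed there. The RefSeq table of GRCh38.p14 held the Entrez identifiers of 19279 of them and changed 0 symbols. The brightest probe set per gene left 18377 genes, with no filter on level. R 4.3.3 with limma 3.58.1 (lmFit, eBayes, two-sided) compared GHSROS with the empty vector over all genes, with Benjamini-Hochberg adjustment and a threshold of 0.05, and the script was tested on simulated data. Standard errors and 95% intervals are limma's moderated ones. The p-values cover the spread among these samples alone, which may be technical if cultures were not grown and transfected separately. There is no read depth on arrays, so precision rests on how many there are.

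The members, the lists and the omission of GHSROS array 3 with empty vector array 1 were chosen with earlier results of these data known. All measured members are reported by role. Of the replication, cell cycle exit, amino acid stress and reference lists, and of each complex of the other mitosis genes, the text names the 2 genes of widest range and those with the most positive and most negative difference. The marker lists of cell types fell outside this rule, and those of their genes that are named were chosen after their values were seen. Alternatives were the replicate number as a block, other normalizations, filters, probe set rules, priors, array weights and omitted arrays.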

Additional observations from a re-analysis of the deposited data

How the results depend on the processing

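In limma, 0 of the 39 members passed the adjusted test under each alternative, and 0 had an unadjusted p under 0.05. The median difference was 0.06 in the main comparison, 0.08 after quantile normalization (37 members above 0), 0.05 after median centring (29 above 0) and 0.18 with array weights (39 above 0). Either filter on level, all probe sets, or an intensity trend with a robust prior cannot change a member's difference. The 30 members above 0 under these settings are thus the same result as in the main comparison. The mean of probe sets, which can change BIRC5 alone, also gave 30. The share of all genes with an unadjusted p under 0.05 was 1.77% in the main comparison, 4.77% with array weights and 0.827% among genes at or above the median level. With single arrays left out, the number of members above 0 ran from 0 to 39: 0 without empty vector array 1, 2 without GHSROS array 1, 5 without GHSROS array 2, 36 without empty vector array 2, and 39 when either array numbered 3 was omitted. The median ran from -0.27 to 0.37 over these omissions, and all 39 members took both signs. The number of members whose groups did not overlap ran from 0 to 4 there, the 4 arising without GHSROS array 3 (17.2% of all genes then), and was 4 without both low arrays. After quantile normalization or median centring, GHSROS array 3 and empty vector array 1 were lowest in all 39 members. The filters leave the members' values as they are, and the mean of probe sets can change BIRC5 alone, so neither tests this order.

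The numbers were not taken as pairs, since the series names groups of biological replicates and no pairing. Deviations from the group means of same-numbered arrays correlated across 18377 genes, which are not independent replicates. The correlations were -0.71, 0.50 and -0.67 for the numbers 1, 2 and 3. They cannot show whether cultures were paired, since the arrays that stood apart carried different numbers in the groups. Of the GHSROS arrays, only array 2 correlated best with the empty vector array of its own number. The replicate number as a block leaves each difference unchanged in this balanced design, so the median was again 0.06. With that block, 0 members passed the test.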

Other observations

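A list of cell cycle exit genes, which also held the D cyclins CCND1, CCND2 and CCND3, had 20 of its 21 genes measured. Their median range over the arrays was 0.49. GHSROS array 3 and empty vector array 1 were the highest arrays in 7 of them, against 18.9% of all genes. The same arrays were the lowest in 5 of them, against 20.3% of all genes. CCND2 was among the 7 and CCND3 among the 5. KLF4, a transcription factor that restrains division in many epithelia, stood at 7.95, 7.91 and 8.90 in GHSROS samples, against 9.18, 8.32 and 7.89 in empty vector samples. TXNIP, an inhibitor of glucose uptake and thioredoxin, stood at 12.57, 12.92 and 13.57 in GHSROS samples, against 13.49, 13.13 and 12.32 in empty vector samples. Between the groups KLF4 had the most negative difference of the list, -0.21 (SE 0.39), and FOXO3 the most positive, 0.17 (SE 0.17), and 0 of the 20 passed the test in limma, with 0 at an unadjusted p under 0.05.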
